A study of Mus musculus with 105 samples.

Results

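Read here were 10 genes that mark or control the epithelial and the mesenchymal state. The genes were chosen by symbol, as the rows of the gene count matrix named Twist1, Twist2, Snai1, Snai2, Zeb1, Zeb2, Cdh1, Cdh2, Epcam and Grhl2, and all 10 were found among 53379 gene rows. They were read in poly(A) RNA libraries from the C57BL/6 strain. The tumour lines were B16 and B16OVA, both labelled melanoma, MCA101OVA, labelled fibrosarcoma, and MC38, labelled colon adenocarcinoma. Each line was sequenced unedited (WT), as a control (Ctrl) and after knockout of the histone methyltransferase gene Setdb1 (KO), with 3 libraries a group in B16, MCA101OVA and MC38 and 6 a group in B16OVA. The protocol gives the lines 1 growth medium with puromycin, and nothing in the labels says whether a group is 1 clone or a pool, or whether replicates were separate cultures. The p-values therefore stand for library-to-library spread, which may be technical. The melanocytes, labelled healthy, were grown from newborn mice and gave 5 libraries. The 12 tissues came from WT female mice, 4 libraries each: skin, colon, stomach, lung, kidney, liver, ovary, thymus, spleen, LN, heart and brain. Another 7 single libraries of unedited lines came from a sequencing run with no replicated group and entered no comparison.

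Epithelial cells hold together through E-cadherin, the product of Cdh1, and through the adhesion molecule EpCAM, while mesenchymal cells carry N-cadherin, the product of Cdh2. The transcription factors of the Twist, Snail and Zeb families repress epithelial genes and are switched on in cells that leave an epithelium, and GRHL2 is a transcription factor that keeps epithelial genes active. In the pigment lineage, which comes from the neural crest, Snai2 and Zeb2 belong to the normal cell, and a switch from ZEB2 to ZEB1 is known from human melanoma.

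Library totals were 17186211 to 50393024 counts in the 45 libraries of the 4 lines, 19863405 to 30593253 counts in melanocytes and 53591239 to 254103370 counts in tissues. Levels are given as CPM, the count of a gene divided by the library total and brought to a common scale. The 45 libraries came from 3 sequencing runs, and a group and a run term were fitted together. Tumour lines and tissues share no run, so their levels stand side by side with no test. Setdb1 itself had log2 folds of -1.85 (adjusted p = 9.8e-05), -1.18 (2.17e-04) and -1.40 (0.00749) in KO against Ctrl of B16, of B16OVA and of MCA101OVA. The B16OVA ranges overlapped (15.6 to 49.9 CPM in KO and 21.1 to 99.4 in Ctrl). In MC38 its log2 fold was -0.52 (adjusted p = 1), and the KO libraries (60.05 to 85.3 CPM) overlapped the Ctrl libraries (54.9 to 125 CPM), so neither the test nor the ranges separated the MC38 groups labelled KO and Ctrl. The MC38 WT libraries held 115 to 133 CPM of Setdb1, above every KO library and overlapping the Ctrl libraries. Pigment cell markers, 8 genes such as Tyr, Dct and Sox10, summed to 29668 CPM in B16 WT and 27206 CPM in B16OVA WT. The same 8 genes summed to 10.1 CPM in MC38 WT and 13.5 CPM in MCA101OVA WT. The 8 colon epithelium markers, among them Cdx1, Cdx2, Vil1 and Cdh17, summed to 35553 CPM in healthy colon and to 1.44 CPM in MC38 WT, so the defining markers of colon epithelium were near 0 in the line labelled colon adenocarcinoma.

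The first result concerns the epithelial side. None of the 4 lines carried an epithelial level of Cdh1 or Epcam. Cdh1 (E-cadherin; GRCm38 chr8:106603351-106670246, plus strand) held 1.33, 0.683 and 1.81 CPM in the 3 B16 WT libraries. The 6 B16OVA WT libraries held 0.466 to 2.07 CPM (median 1.05), and the MCA101OVA WT libraries held 0, 0.102 and 0.0302 CPM. All 3 MC38 WT libraries had 0 Cdh1 counts, and the 6 edited MC38 libraries held 0.0414 to 0.0752 CPM. The B16 and B16OVA libraries lay above every MC38 and MCA101OVA library, and all of them lay below every library of the 11 tissues other than heart. Healthy colon held 982 ± 158 CPM (SD, n = 4), stomach 739 ± 142, skin 450 ± 26.2 and lung 403 ± 31.5. Heart held 0.141 ± 0.111 CPM of Cdh1 and was the one tissue in the range of the lines. As a share of the colon mean, Cdh1 reached 0.130% in B16 WT, 0.121% in B16OVA WT, 0.00450% in MCA101OVA WT and 0% in MC38 WT. In bulk RNA, fewer epithelial cells and less RNA per cell cannot be told apart.

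Epcam, a surface adhesion molecule of most simple epithelia (chr17:87635979-87651129, plus strand), was closer still to 0. It had 0 counts in all 9 B16, 18 B16OVA and 9 MCA101OVA libraries, WT, Ctrl and KO together. A total of 3 counts over these libraries, taken here as the detection floor, would stand for 0.00863, 0.00559 and 0.0105 CPM. MC38 had 1 count in 1 WT library (0.0314 CPM) and 1 count in each of 2 KO libraries (0.0442 and 0.0582 CPM). Colon held 1450 ± 61.3 CPM of Epcam, stomach 224 ± 95.6, skin 107 ± 15.6 and kidney 102 ± 39.2. No tumour library reached the level of liver (2.42 ± 1.40 CPM), the lowest Epcam level of any tissue apart from brain (0.238 ± 0.0727) and heart (0.0487 ± 0.00803). These floors cover counting error only.

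The upstream sequence of Epcam is printed because the Snail, Zeb and Twist proteins bind E-boxes, and the strongest Snail and Zeb sites read CAGGTG on one of the strands. Capitals mark each match to CAGGTG on either strand (CACCTG is its reverse complement) in the 250 bases before the start of Epcam, chr17:87635729-87635978, plus strand, from RefSeq with the GRCm38.p6 build.
Epcam promoter: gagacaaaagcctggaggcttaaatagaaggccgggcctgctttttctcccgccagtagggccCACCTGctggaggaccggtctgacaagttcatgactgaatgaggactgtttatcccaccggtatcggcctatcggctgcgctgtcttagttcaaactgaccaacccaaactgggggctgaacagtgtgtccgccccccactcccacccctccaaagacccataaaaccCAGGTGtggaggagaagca
The 2 matches begin 187 and 19 bases before the start. Among 32851 promoter entries of 300 bases, 17.2% held at least 1 match and 2.06% at least 2. Promoter entries were found for 5 of the 10 genes, and Cdh1 was not among them. Epcam, the only one printed, held the most matches of the 5. The Snai1 entry held 1 match, and the Twist1, Twist2 and 4 Zeb2 entries held 0. A match is a description of the letters and does not show that a factor binds there.

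Grhl2, the epithelial transcription factor (chr15:37233036-37363569, plus strand), was low in all unedited lines, but not equally. B16 WT held 0.180, 0.155 and 0.238 CPM and the 6 B16OVA WT libraries 0.0389 to 0.170 CPM. MC38 WT held 0.857, 1.07 and 0.496 CPM, and MCA101OVA WT held 1.30, 1.91 and 1.33 CPM, the highest unedited level. The 2 melanoma lines overlapped, and every MC38 and MCA101OVA WT library lay above every one of theirs. Skin (63.6 ± 3.60 CPM), colon (53.1 ± 3.60), stomach (30.0 ± 5.63) and lung (27.1 ± 4.13) were the highest tissues. The spleen was lowest, with 0.0513 ± 0.0404 CPM.

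**Figure D1:**
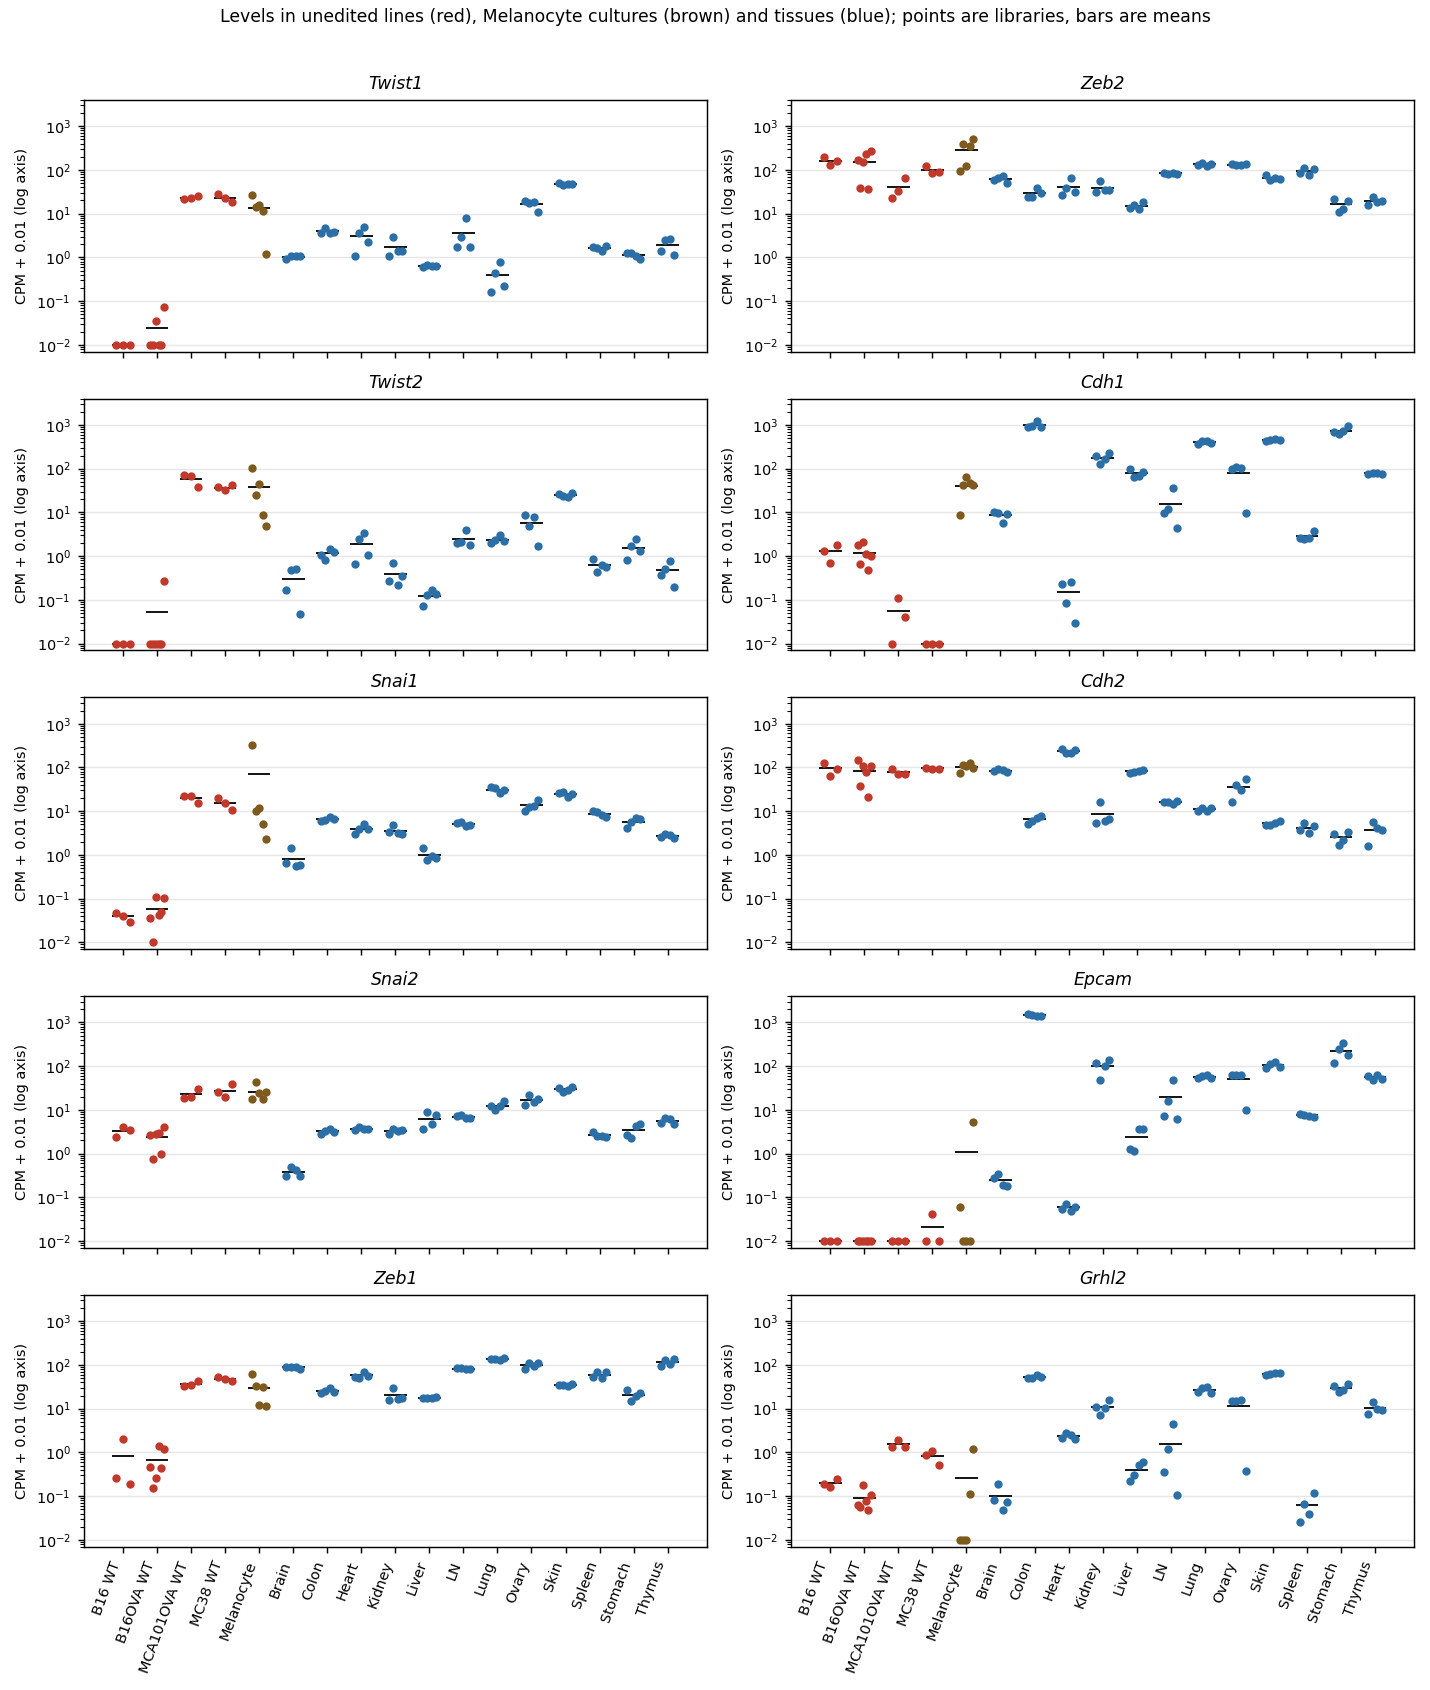
CPM + 0.01 on a log axis for each of the 10 genes; each point is a library, bars are group means, and colours separate unedited lines, melanocytes and tissues. Cdh1, Epcam and Grhl2 of the lines lie far below colon, stomach and skin, and Twist1, Twist2, Snai1 and Zeb1 lie at 2.05 CPM or less in B16 and B16OVA and between 10.5 and 70.4 CPM in MC38 and MCA101OVA.

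The mesenchymal cadherin was high in every line. Cdh2 held 127, 64.7 and 94.4 CPM in B16 WT, 92.2, 69.1 and 69.5 CPM in MCA101OVA WT, and 98.8, 94.4 and 93.9 CPM in MC38 WT. The 6 B16OVA WT libraries ranged from 21.2 to 149 CPM. B16 and B16OVA overlapped every other line, and the melanocytes (73.7 to 129.6 CPM) overlapped all 4 lines. The 3 MC38 libraries lay just above the 3 of MCA101OVA, which were sequenced in other runs. Among tissues, heart was highest at 234 ± 27.4 CPM, brain and liver held 84.4 ± 5.29 and 80.9 ± 5.10 CPM, and stomach was lowest at 2.53 ± 0.740 CPM.

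Levels of different genes were compared per kilobase of exon. On that scale Cdh1 made up 99.8 ± 0.0404% of the 2 cadherins together in stomach, 99.6 ± 0.0764% in colon, 99.3 ± 0.0606% in skin and 98.5 ± 0.171% in lung. It made up 38.1 ± 12.9% in melanocytes (n = 5), 2.30 ± 0.832% in B16 WT, 2.70 ± 0.776% in B16OVA WT, 0.113 ± 0.134% in MCA101OVA WT and 0% in MC38 WT. Heart, with 0.108 ± 0.0864%, was the tissue whose balance of cadherins came closest to the lines, and brain followed with 15.3 ± 3.28%. The highest single share in any of the 45 tumour libraries was 10.5%, in B16OVA Ctrl replicate 2, where Cdh2 was low (17.4 CPM, against 78.3 to 138 in the other 5 libraries of that group). That library also had the steepest loss of counts with transcript length of all 45 (slope -0.715), and the part of this in the share was not tested.

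**Figure D2:**
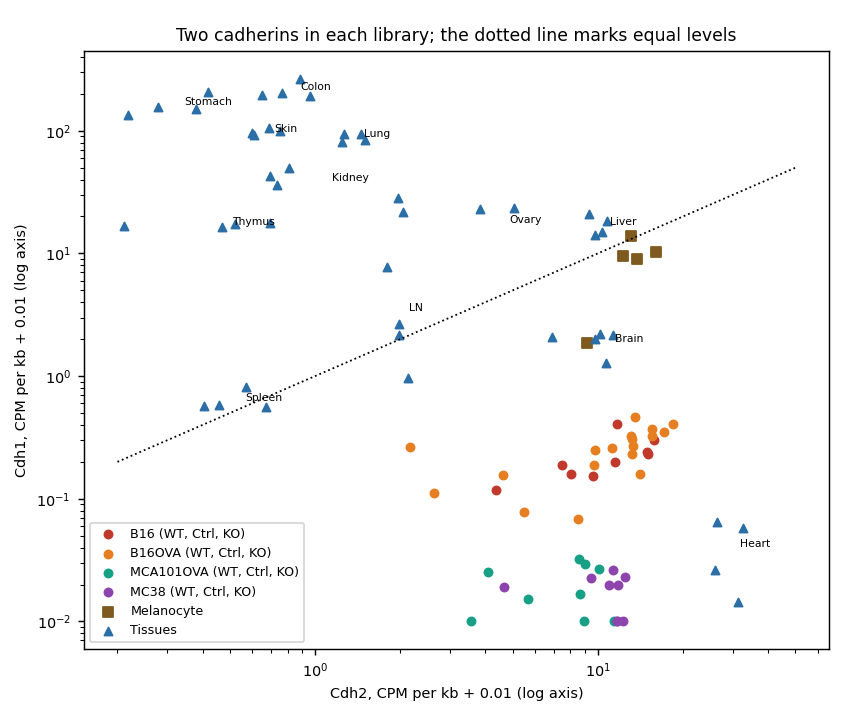
Cdh1 against Cdh2 in each library, both as CPM per kilobase of exon + 0.01 on log axes; circles are tumour libraries by line, squares melanocytes, triangles tissues with each name at the tissue's mean, and the dotted line marks equal levels. All 45 tumour libraries lie below the line, with MC38 and MCA101OVA below B16 and B16OVA, while colon, stomach, skin, lung, kidney and thymus lie above it.

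The repressors of the epithelial state separated the melanoma lines from the other lines. Twist1, a basic helix-loop-helix factor of mesoderm and neural crest (chr12:33957671-33959829, plus strand), had 0 counts in all 9 B16 libraries. B16OVA had 3 counts in all, in 2 of 18 libraries (0.0243 and 0.0638 CPM). MC38 WT held 28.0, 23.2 and 18.3 CPM and MCA101OVA WT 21.5, 22.7 and 25.5 CPM, with no overlap with either melanoma line. Skin was the highest tissue (48.3 ± 2.23 CPM) and lung the lowest (0.395 ± 0.282 CPM). Against the 2 Twist1 counts of the B16OVA WT libraries from the same run, MC38 WT held 1011 times as much (95% counting interval 279 to 8351). Against 1 count, MCA101OVA WT held 2318 times as much (416 to 91613). Counting intervals, here and below, pool the counts of each group and leave out the spread between libraries. The fitted log2 folds were 9.67 (adjusted p = 1.8e-05) and 10.81 (1.08e-05), and depend on the prior count where a group is near 0.

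Its relative Twist2 (chr1:91801461-91848028, plus strand) followed the same split. It held 37.5, 31.8 and 41.9 CPM in MC38 WT and 70.4, 68.3 and 39.1 CPM in MCA101OVA WT. It had 0 counts in every B16 WT library and in 5 of 6 B16OVA WT libraries, the sixth holding 0.255 CPM. MC38 WT held 407 times the B16OVA WT level of its run (206 to 942, 8 counts in B16OVA; adjusted p = 4.59e-04). MCA101OVA WT held at least 2007 times as much, taking 3 counts over the B16OVA WT libraries of its runs as the floor (adjusted p = 1.19e-04). Both lines exceeded the skin level of 25.0 ± 2.21 CPM, the highest of the 12 tissues, in each WT library.

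Snai1, the zinc-finger repressor first known for silencing Cdh1 (chr2:167538195-167542814, plus strand), held 0 to 0.137 CPM in every B16 and B16OVA library. MC38 WT held 20.1, 15.7 and 10.5 CPM and MCA101OVA WT 21.8, 21.7 and 15.1 CPM, again without overlap. The ratios to B16OVA WT were 269 (115 to 830; adjusted p = 0.00369) and 395 (169 to 1219; adjusted p = 0.00237), each against 5 counts. Snai2 (chr16:14705852-14709385, plus strand), the family member of the neural crest, was the one of these 4 with a clear level in the melanoma lines. It held 2.34, 4.004 and 3.47 CPM in B16 WT, and 0.759 to 4.05 CPM in B16OVA WT. MC38 WT (25.1, 19.3 and 38.5 CPM) and MCA101OVA WT (18.5, 19.8 and 30.4 CPM) lay above all of these. The log2 folds against B16OVA WT were 3.32 (SE 0.52, adjusted p = 8.77e-05) and 3.51 (SE 0.53, adjusted p = 5.79e-05). Skin (30.1 ± 3.22 CPM) was the highest tissue and brain (0.375 ± 0.0927) the lowest.

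The 2 Zeb genes, large zinc-finger repressors, did not share 1 pattern between the lines. Zeb1 (chr18:5591860-5775467, plus strand) held 0.252, 2.05 and 0.179 CPM in B16 WT and 0.142 to 1.39 CPM in B16OVA WT. In MC38 WT it held 52.9, 46.8 and 43.8 CPM and in MCA101OVA WT 32.9, 34.1 and 42.1 CPM, with log2 folds of 5.48 (SE 0.90, adjusted p = 1.27e-04) and 7.01 (SE 0.98, adjusted p = 2.7e-05) against B16OVA WT. The melanoma lines lay below every tissue library for Zeb1, whose lowest tissue was liver at 17.6 ± 0.469 CPM. Zeb2 (chr2:44983632-45117395, minus strand) held 199.8, 129 and 163 CPM in B16 WT and 37.4 to 269 CPM in B16OVA WT. It held 123, 85.2 and 91.2 CPM in MC38 WT and 22.8, 32.3 and 66.7 CPM in MCA101OVA WT. The Zeb2 ranges of B16OVA overlapped those of both other lines, and its log2 folds of -0.88 (MC38, adjusted p = 0.304) and -1.48 (MCA101OVA, adjusted p = 0.0979) were not called. Without 7 libraries that lose counts with transcript length the MCA101OVA fold was -2.03 (adjusted p = 0.0124), and it was also called without the B16OVA WT replicate 2 (0.0362) or the MCA101OVA WT replicate 3 (0.0475).

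Per kilobase of exon, Zeb2 exceeded Zeb1 in 3 of 3 B16 WT and 6 of 6 B16OVA WT libraries (means 8.22 against 0.0805 and 7.58 against 0.0626 CPM per kb). In MC38 WT the 2 genes were close, 5.01 ± 1.02 against 4.66 ± 0.448 CPM per kb, with Zeb2 higher in 2 of 3 libraries. In MCA101OVA WT Zeb1 was higher in 3 of 3 (3.54 ± 0.489 against 2.04 ± 1.16). Melanocytes held 14.6 ± 8.85 CPM per kb of Zeb2 and 2.93 ± 2.03 of Zeb1, with Zeb2 higher in 4 of 5 libraries. In tissues Zeb1 was higher in every library of all but kidney (Zeb2 higher in 3 of 4) and skin (2 of 4), with the widest gap in thymus (11.5 ± 1.91 against 0.986 ± 0.177 CPM per kb).

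Zeb2 has the longest transcript of the 10 genes (19.9 kb of exon), and libraries that lose counts with length were among its lowest. In B16OVA WT the 2 such libraries held 37.4 and 39.5 CPM and the other 4 held 156 to 269. In B16OVA Ctrl it was 11.3 against 102 to 248 CPM, and in MC38 Ctrl 22.5 against 72.8 to 83.5 CPM. The gap was small in B16OVA KO (74.3 against 76.1 to 256 CPM) and in B16 KO (45.5 against 52.1 to 151). In MCA101OVA Ctrl the lowest Zeb2 value, 4.16 CPM, was in another library than the one that loses counts with length, which held 10.2 CPM. Cdh2 was lowest in such libraries in all of these groups, with 17.4 CPM against 78.3 to 138 in B16OVA Ctrl. Most of these libraries came from 1 sequencing set: replicate 2 of B16OVA WT, Ctrl and KO, of B16 KO and of MCA101OVA Ctrl. The run term does not separate that set from the other set of its run. B16OVA WT replicate 5 and MC38 Ctrl replicate 1 came from another run. The part of length in these values was not tested for single genes.

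Over the 10 genes, 9 were tested in the unedited lines, Epcam falling below the count filter. In MC38 WT against B16OVA WT 6 rose (Twist1, Twist2, Snai1, Snai2, Zeb1 and Grhl2) and 1 fell (Cdh1), where 36.7% of the 16929 tested genes were called (13.8% up and 22.9% down). In MCA101OVA WT against B16OVA WT the count was again 6 up and 1 down, against 31.9% called (14.8% up and 17.1% down). The same 7 genes were called in both, and both comparisons share B16OVA WT. The fall of Cdh1 in MC38 WT, 0 counts against 77 in the B16OVA WT libraries of its run, was at least 29.3-fold with 3 counts as the floor (adjusted p = 1.75e-04). In MCA101OVA WT, with 4 counts against 168, the B16OVA WT level was 44.1 times as high (counting interval 16.9 to 164; adjusted p = 3.9e-04). The Grhl2 calls were the weakest. Its log2 fold was 3.39 (SE 1.27, adjusted p = 0.0444) in MC38 WT and 4.04 (SE 1.23, adjusted p = 0.0172) in MCA101OVA WT. The first was lost with any library left out other than B16OVA WT replicate 2 (adjusted p up to 0.111). The second was lost without B16OVA WT replicate 1 (0.0808), B16OVA WT replicate 2 (0.0669) or MCA101OVA WT replicate 1 (0.0522).

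The replicated MC38 and MCA101OVA groups share no run and are joined only through B16OVA, so their comparison has little power. None of the 9 genes was called, against 0.207% of all genes (0.0827% up and 0.124% down), and 0 had an unadjusted p under 0.05 (edgeR). Where B16OVA is near 0 the fitted fold is not usable: Twist2 had a fitted log2 fold of -5.44 although its means were 37.1 ± 5.06 and 59.3 ± 17.5 CPM. The WT libraries of the 2 lines overlapped for Twist1, Twist2, Snai1, Snai2 and Cdh1. They did not overlap for Zeb1, Zeb2, Cdh2 (all higher in MC38) or Grhl2 (higher in MCA101OVA), across different runs. The run of single libraries holds both lines, and there MC38 held 46.9 CPM of Cdh2 against 132 in MCA101OVA. The other values were 64.6 against 70.3 CPM of Zeb1, 130 against 122 of Zeb2 and 0.794 against 2.39 of Grhl2. Cdh2 and Zeb1 thus had the reverse order in that run, on 1 library a line and with no test. B16OVA WT against B16 WT gave 0 called genes of the 9, against 0.00591% of all genes, and 0 at an unadjusted p under 0.05 (edgeR), which does not show that the lines are alike.

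Cdh1 and most of the repressors were higher in cultured melanocytes than in B16OVA. Against melanocytes, 6 of 9 genes fell in B16OVA WT (Cdh1, Twist1, Twist2, Snai1, Snai2 and Zeb1) and 0 rose, where 42.2% of all tested genes were called (20.4% up and 21.8% down). Cdh1 held 8.51, 41.5, 63.9, 46.5 and 43.3 CPM in the 5 libraries, all above every B16 and B16OVA library, and the log2 fold of B16OVA WT was -5.43 (SE 0.75, adjusted p = 5.2e-05). Twist1 held 26.1, 14.2, 16.004, 11.5 and 1.20 CPM in melanocytes, 581 times the B16OVA WT level of the run (160 to 4798; adjusted p = 3.32e-05). Snai2 held 17.4 to 43.6 CPM and was 3.18 lower in B16OVA WT on the log2 scale (SE 0.50, adjusted p = 9.56e-05). Zeb1 held 11.2 to 62.2 CPM and was 4.91 lower (SE 0.85, adjusted p = 2.34e-04). Zeb2 (95.6 to 503 CPM), Cdh2 and Grhl2 were not called, with adjusted p of 0.426, 0.231 and 0.296.

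The melanocyte libraries were not uniform. Replicate 1 held 325.8 CPM of Snai1, and the other 4 held 2.35 to 11.6. In that library fibroblast markers, 8 genes such as Col1a1, Dcn and Thy1, summed to 18314 CPM against 183 to 2502 in the others, and pigment markers to 12869 against 47369 to 67564. Twist1, Twist2 and Zeb1 were also highest in replicate 1 (26.1, 104.7 and 62.2 CPM). All 3 were lowest in replicate 5 (1.20, 4.88 and 11.2 CPM), where the fibroblast sum was lowest. Between these the order differed: Twist2 held 43.9 CPM in replicate 3 (fibroblast sum 975) and 24.9 in replicate 2 (2502). Snai2 was highest in replicate 2 (43.6 CPM) and lowest in replicate 4 (17.4 CPM). Epcam and Grhl2 stood out in replicate 5, with 5.33 CPM of Epcam (0 to 0.0503 in the others) and 1.16 CPM of Grhl2 (0 to 0.103). There the 8 keratinocyte markers summed to 38.5 CPM against 2.40 to 7.15, and the 6 leukocyte markers to 826 CPM against 15.9 to 251. The part of other cells in these values was not tested. Epcam was at least 29.8-fold higher in melanocytes than in B16OVA WT on 130 counts against 0, a value that rests on replicate 5.

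The second result concerns the loss of Setdb1, whose product writes the repressive H3K9 trimethyl mark. Grhl2 was the one gene of the 10 that was called. In B16 it held 0.0426, 0.210 and 0.207 CPM in Ctrl and 4.74, 3.56 and 6.73 CPM in KO. In B16OVA the 6 Ctrl libraries held 0 to 0.149 CPM and the 6 KO libraries 2.59, 3.22, 5.13, 1.92, 0.918 and 1.63 CPM. The KO libraries of both lines lay above every Ctrl and every WT library. Grhl2 rose in both, with a log2 fold of 5.13 in the first line (SE 0.60, adjusted p = 5.26e-07; 622 against 16 counts) and 4.82 in the second (SE 0.46, adjusted p = 2.26e-09; 484 against 11 counts). The pooled ratios were 36.0 (counting interval 21.98 to 63.3) and 37.2 (20.6 to 75.1), intervals that leave out the spread between libraries.

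In MCA101OVA Grhl2 held 1.27, 0.502 and 2.37 CPM in Ctrl and 3.38, 3.79 and 5.93 CPM in KO. In MC38 it held 0.497, 0.603 and 0.451 CPM in Ctrl and 2.87, 2.63 and 1.40 CPM in KO. The groups did not overlap in either line, and KO also lay above WT in each. The fitted log2 folds were 1.57 (SE 0.50, adjusted p = 0.430) in MCA101OVA and 2.07 (SE 0.53, adjusted p = 0.0674) in MC38, neither called. For MC38 the call was reached with DESeq2 (adjusted p = 0.00184), with the library set as a replicate block (0.0208) and without MC38 KO replicate 3 (0.0367). In B16 it was lost with the B16 KO and Ctrl libraries alone in the fit (log2 fold 5.18, adjusted p = 0.0589).

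Of 9 genes tested in each line, Grhl2 was the single call in B16, against 0.690% of all genes (0.660% up and 0.0297% down), and in B16OVA, against 1.05% (0.994% up and 0.0595% down). There were 0 calls in MCA101OVA, against 0.345% (0.339% up and 0.00595% down), and 0 in MC38, against 0.464% (all up), with 1 gene of the 9 at an unadjusted p under 0.05 in each (edgeR). Grhl2 was also the one gene of the 10 with every KO library above every Ctrl library, in each of the 4 lines, where the share of all tested genes with this order was 3.30% for B16, 1.18% for B16OVA, 2.36% for MCA101OVA and 3.48% for MC38. With WT added to the lower side the shares were 2.22%, 0.738%, 1.04% and 2.08%. No gene of the 10 had every KO library below every Ctrl library in any line. Exact two-sided permutation tests of KO against Ctrl for Grhl2 gave p = 0.00216 in B16OVA and 0.1 in each line with 3 against 3. Where every KO library lies above every Ctrl library, this test can only return the smallest p the design allows. These values therefore add nothing to the order itself, and libraries were exchanged across runs. Adjusted over the 8 tests of Grhl2 and Cdh1 in the 4 lines, these were 0.0173 and 0.2, an adjustment that leaves out the rest of the 10 genes. Within runs the difference stood in each: 4.74 against 0.0426 CPM and a mean of 5.14 against 0.209 CPM in the 2 runs of B16, and 2.59 against 0.149, 4.18 against 0.0290 and 1.49 against 0.0655 CPM in the 3 runs of B16OVA. In MCA101OVA the values were 3.38 against 1.27 and 4.86 against 1.43 CPM in its 2 runs, and MC38 had 1 run. Ctrl against WT called 0 of the 9 genes in each line, against 0% of all genes, with 1 at an unadjusted p under 0.05 in B16OVA, 1 in MC38 and 0 in the other 2 lines (edgeR).

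**Figure D3:**
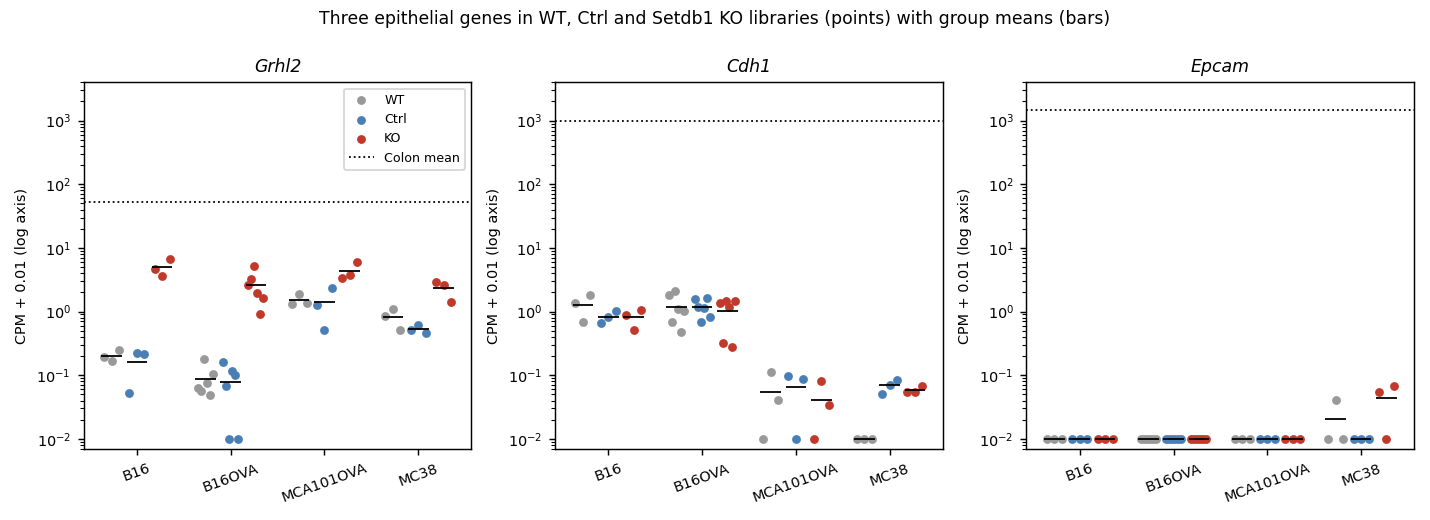
CPM + 0.01 on a log axis for Grhl2, Cdh1 and Epcam in WT, Ctrl and Setdb1 KO libraries of the 4 lines; points are libraries, bars group means, and the dotted line is the mean of healthy colon. Grhl2 is higher in KO in each line and stays below colon, and Cdh1 and Epcam show no such separation.

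The size of the Grhl2 difference was set against that of B16OVA. As a fitted fold the effect in MCA101OVA was smaller, with a difference of -3.25 on the log2 scale (adjusted p = 0.0347). It was the single call among the 9 genes, where 0.101% of all genes were called (0.0535% up and 0.0476% down). That call was lost without the run term, with the groups compared alone, and without 10 libraries of steep length slope. It was also lost in 12 of 18 fits with 1 library left out (adjusted p between 0.0514 and 0.148 in those 12). The 12 libraries were MCA101OVA KO replicates 1, 2 and 3 and Ctrl replicates 1 and 3, and B16OVA KO replicates 1, 3, 4 and 6 and Ctrl replicates 2, 3 and 6. In MC38 the difference from the B16OVA effect was -2.75 and was not called (adjusted p = 0.103; 0.262% of all genes called, 0.202% up and 0.0595% down), and in B16 no gene of the 9 was called (0% of all genes). The Ctrl level differed at the start, 0.0672 ± 0.0598 CPM in B16OVA against 1.38 ± 0.936 in MCA101OVA. With 11 counts in the B16OVA Ctrl libraries, the fitted fold there depends on the prior count. The KO means lay closer together: B16 held 5.01 ± 1.61 CPM, MCA101OVA 4.37 ± 1.37, B16OVA 2.57 ± 1.49 and MC38 2.30 ± 0.791. In that order they were 9.43%, 8.22%, 4.84% and 4.33% of the Grhl2 mean of colon.

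No other epithelial gene of the 10 or of the lists read here was called after the loss of Setdb1. Cdh1 held 0.870, 0.496 and 1.06 CPM in B16 KO against 0.661, 0.810 and 1.01 in Ctrl. In B16OVA the KO libraries held 0.267 to 1.45 CPM and the Ctrl libraries 0.683 to 1.64. The Cdh1 ranges overlapped in both lines, and its log2 folds were 0.00 in B16 and -0.38 in B16OVA (adjusted p = 1 and 0.931), with pooled ratios of 1.03 (counting interval 0.766 to 1.38) and 0.841 (0.685 to 1.03). Cdh1 had 4 counts against 4 in MCA101OVA and 3 against 5 in MC38, too few to show a change. Epcam stayed at 0 counts in the KO libraries of B16, B16OVA and MCA101OVA. Of 24 epithelial adhesion and junction genes, such as claudins, Dsp and Ocln, 11 were tested and 0 were called in any of the 4 KO comparisons. Of 24 epithelial regulators and other epithelial genes, 10 were tested and 0 were called. The epithelial splicing factor Esrp1 held 0.0637 ± 0.0361 CPM in KO libraries of B16 and 0.0106 ± 0.0165 in those of B16OVA, against 252 ± 7.29 in colon.

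The repressors and Cdh2 gave no call either. The largest fitted change outside Grhl2 among genes with 20 counts or more was that of Zeb1 in B16, with a log2 fold of -1.14 (adjusted p = 1) on 0.343 ± 0.393 CPM in KO and 0.675 ± 0.488 in Ctrl. In B16OVA its log2 fold was 0.67 (adjusted p = 0.900). In MCA101OVA, Snai1 held 13.6, 49.5 and 15.8 CPM in KO against 21.8, 8.63 and 13.6 in Ctrl, and the groups overlapped (log2 fold 0.79, adjusted p = 0.878). Twist1 and Twist2 had 0 counts in all KO libraries of B16 and B16OVA. Twist1 in MCA101OVA and MC38 had log2 folds of 0.03 and 0.01, and Cdh2 between -0.40 and 0.12 in the 4 lines.

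**Figure D4:**
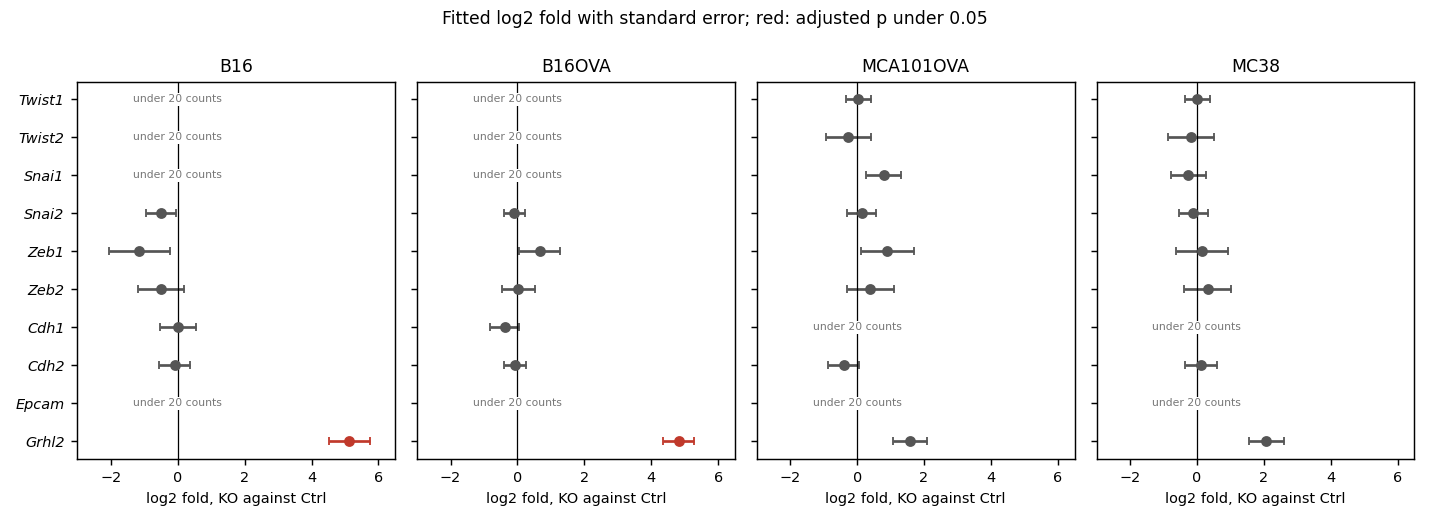
Fitted log2 folds of KO against Ctrl with their standard errors in the 4 lines; red marks an adjusted p under 0.05, and genes with under 20 counts in the 2 groups are named without a value. Grhl2 is called at 5.13 in B16 and 4.82 in B16OVA and lies at 1.57 and 2.07 in the other lines, while the remaining plotted genes lie between -1.14 and 0.90.

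Genes within 500 kb of Grhl2 were read as well, a choice made after the Grhl2 values were known. Ywhaz, Zfp706 and Ncald had log2 folds between -0.17 and 0.58 in the 4 KO comparisons and were not called in any. Gm10384 was not called either, on few counts. Gm16136, an antisense gene over the first exon of Grhl2 (chr15:37231793-37233309, minus strand), had 0 counts in all Ctrl and KO libraries of the 4 lines and held 7.63 ± 0.922 CPM in colon. Zeb1, Zeb2 and Twist2 also have antisense genes that overlap them, and no source used here gives the strand setting of the counting.

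The wider epithelial and mesenchymal gene lists gave the setting for the 10 genes. Of 24 epithelial adhesion and junction genes, 7 reached a group mean of 1 CPM in B16 WT, 6 in B16OVA WT, 6 in MCA101OVA WT and 5 in MC38 WT, and 23 in colon. Of 24 epithelial regulators and other epithelial genes the counts were 3, 2, 5 and 6, and 22 in colon. Of 30 mesenchymal genes they were 14, 15, 19 and 19, and 26 in colon. The keratin pair of simple epithelia was an exception. Krt8 held 404 ± 142 CPM in MC38 WT and 855 ± 73.9 in MCA101OVA WT, against 0.437 ± 0.743 in B16OVA WT and 3544 ± 519 in colon. Krt18 held 294 ± 74.7 and 483 ± 125.0 CPM, against 0.471 ± 0.926 in B16OVA WT and 334.3 ± 59.9 in colon. With Klf5, a transcription factor of gut and skin epithelium (65.1 ± 8.32 and 56.6 CPM), they were the 3 called upward of 13 tested in each comparison with B16OVA WT.

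**Figure D5:**
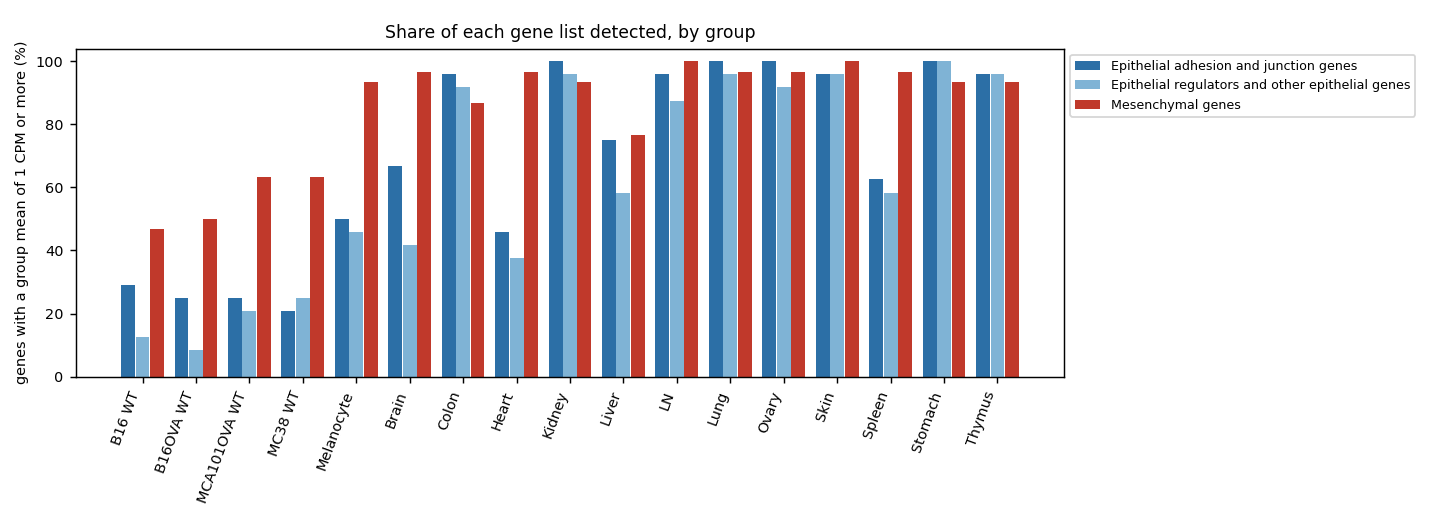
Percent of the genes of 3 lists whose group mean is 1 CPM or more, by group, for unedited lines, melanocytes and tissues. The lines reach 8.33% to 29.2% for the epithelial lists and 46.7% to 63.3% for the mesenchymal list, and colon reaches 86.7% or more for all 3.

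Among mesenchymal genes 12 of 30 rose and 2 fell in MC38 WT against B16OVA WT, with a median log2 fold of 1.61 against -0.09 over all tested genes. In MCA101OVA WT 15 rose and 3 fell. The shares of all tested genes called in these comparisons were 36.7% and 31.9%, against which the list counts of this paragraph are to be read. Prrx1 and Prrx2, homeobox factors of limb and skin mesenchyme, held 105.4 ± 35.8 and 89.9 ± 52.9 CPM in MC38 WT and 0.169 and 0.113 CPM in B16OVA WT. Postn, which encodes the matrix protein periostin, fell, with 0.0302 and 0.0202 CPM in MC38 and MCA101OVA WT against 6.54 in B16OVA WT. The intermediate filament gene Vim held 3154 ± 490 CPM in MC38 WT, 5049 ± 2560 in MCA101OVA WT and 1445 ± 256 in B16 WT. Of 14 tested adhesion and junction genes 3 rose and 4 fell in MC38 WT, and 3 rose and 5 fell in MCA101OVA WT. Pkp3, a desmosomal plakophilin, was the highest by fold (28.3 and 46.8 CPM, against 0.102 in B16OVA WT), and Tjp3, a tight junction protein, was among those lower (0.1002 and 0.0647 CPM, against 6.16). Of 19 tested TGF-beta pathway genes, whose signal is a classical inducer of Snail and Zeb factors, 6 rose and 3 fell in MC38 WT and 4 rose and 3 fell in MCA101OVA WT. Ltbp1, which binds latent TGF-beta, held 409 and 393 CPM in MC38 and MCA101OVA WT and 1.75 in B16OVA WT. Tgfb2, one of the TGF-beta ligands, fell in both lines (0.229 and 0.183 CPM against 6.66), and Id2, a target gene of the pathway, fell in MCA101OVA WT (10.5 against 153 CPM).

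Against melanocytes, 27 of 30 mesenchymal genes fell and 0 rose in B16OVA WT, and 7 of 14 adhesion and junction genes fell and 0 rose, where 42.2% of all tested genes were called. Most markers of other cell types fell too: all 8 fibroblast markers, 4 of 5 tested leukocyte markers (1 rose) and 2 of 3 tested keratinocyte markers. The endothelial markers were mixed: Kdr fell (0 CPM in B16OVA WT against 14.7 in melanocytes) and Egfl7 rose (20.2 against 3.43 CPM). The part of such cells among the melanocytes was not tested. In KO against Ctrl the lists gave 2 calls, both in MC38 and both collagen chains: Col1a1 rose by 3.15 on the log2 scale (SE 0.49, adjusted p = 2.4e-04; 8.28 ± 2.34 against 0.883 ± 0.148 CPM), and Col1a2 by 3.50 (SE 0.72, adjusted p = 0.00879; 57.5 ± 23.1 against 4.78 ± 1.40 CPM). The same 2 genes stand in both lists, as 2 of 25 tested mesenchymal genes and 2 of 5 tested fibroblast markers. In that comparison 78 of all 16809 tested genes were called, all up. The median log2 fold of the mesenchymal list was -0.02 against -0.01 over all genes.

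Over the 12 tissues all 10 genes were tested in each contrast of 1 tissue with the mean of the other 11. In colon 8 were called (Cdh1, Epcam, Grhl2 and Twist1 up, and Snai2, Zeb1, Zeb2 and Cdh2 down), where 54.4% of 26242 genes were. Epcam was 6.85 higher in colon on the log2 scale (adjusted p = 5.21e-27), Cdh1 4.55 (7.75e-21) and Grhl2 4.06 (3.92e-14). Stomach had 9 called (59.4% of all genes), skin 9 (57.8%), lung 10 (57.0%) and kidney 8 (57.1%), with Cdh1, Epcam and Grhl2 up in each. In skin Twist1 (log2 fold 4.45, adjusted p = 9.45e-23), Twist2 (4.58, 9.03e-20) and Snai2 (2.51, 1.68e-21) were up as well, beside Cdh1, whereas Zeb1 (-0.92, 1.25e-09) and Cdh2 (-1.97, 1.54e-09) were down. Lung had the highest Snai1 (31.1 ± 4.12 CPM), Zeb1 (136 ± 7.03) and Zeb2 (135 ± 8.67) together with the fourth highest Cdh1. Heart had 7 called (59.7% of all genes), with Twist1, Twist2, Zeb1, Zeb2 and Cdh2 up and Cdh1 (log2 fold -8.70, adjusted p = 3.49e-16) and Epcam (-8.80, 2.38e-15) down. Brain had 9 (71.2% of all genes, 36.2% up and 35.0% down), liver 10 (64.2%), LN 6 (61.5%), ovary 9 (55.6%) and thymus 8 (69.0%), and the count of 9 in spleen stood beside a share of all genes between those of liver and thymus. The kidney count was 5 without kidney replicate 1, the other tissue counts staying within 1.5 times.

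Ordered by mean over the 25 groups, each gene had few steps at which neighbours did not overlap. Cdh1 had 7 such steps of 24: below stomach, lung, kidney, thymus, brain, spleen and B16 KO. The 6 melanoma groups, from 1.27 ± 0.564 CPM (B16 WT) to 0.810 ± 0.289 CPM (B16 KO), each overlapped the next. Grhl2 had 4 and Epcam 3. The Grhl2 order ran from skin and colon through stomach, lung, ovary, kidney and thymus to B16 KO and MCA101OVA KO. Next came B16OVA KO, heart (2.34 ± 0.291 CPM) and MC38 KO, and then LN (1.53 ± 2.04 CPM). All 4 KO groups thus had means below thymus and above LN and liver (0.394 ± 0.175 CPM). Zeb2 had 1 such step, and the others 2 to 4.

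Taking the 10 genes as a profile of log2(CPM + 0.5) means, the tissue nearest to MC38 WT was heart (Euclidean distance 6.25), and colon was the farthest of the 12 (18.3). MCA101OVA WT was also nearest to heart (6.59) and farthest from colon (18.1). B16 WT and B16OVA WT were nearest to brain (7.34 and 7.39) and farthest from skin. With Setdb1 knocked out the nearest tissues were heart for MC38 (6.13), MCA101OVA (6.73) and B16 (8.15) and brain for B16OVA (6.91). The second tissue was almost as near for B16 KO (brain, 8.34) and for B16OVA KO (heart, 7.04). No Ctrl group was placed in this way, so the KO groups stand beside WT only. The distances come from 10 genes chosen for their roles and describe only those genes, between cell lines and whole organs sequenced in different runs.

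Across the 17 means of 12 tissues, melanocytes and 4 WT lines, the 3 epithelial genes went together and the Twist and Snail genes went together, while Cdh2, Zeb1 and Zeb2 were less like either. Pearson correlations of log2(CPM + 0.5) were 0.89 for Cdh1 with Epcam, 0.86 for Epcam with Grhl2 and 0.77 for Cdh1 with Grhl2. They were -0.86 for Cdh2 with Epcam and -0.70 for Cdh2 with Cdh1. Twist1 and Twist2 gave 0.89, Twist2 and Snai1 0.82, and Zeb1 and Zeb2 -0.19. Cdh2 gave 0.01 with Twist1, -0.21 with Snai1 and -0.28 with Zeb1, and Zeb1 gave 0.60 with Snai1 and 0.32 with both Epcam and Grhl2. The points share sequencing runs and library depth by kind of sample, so these are descriptions. The genes most like Epcam were Ap1m2 (0.98), Bspry and Ehf. For Grhl2 they were Esrp1 (0.95), Tnk1 and Cnksr1, and for Cdh1 Ripk4 (0.93), Tmem30b and Kdf1. Those of Twist1 were Twist2, Prrx2 and Tpbg, those of Twist2 Prrx2 (0.93), Fbln2 and Twist1, and those of Snai1 Kctd11 (0.97), Nfatc4 and Mrc2. Snai2 was most like Twist2 (0.86), Sh3pxd2a and Cep295nl, Zeb1 like Hnrnph3 (0.92), Amigo2 and Spop, and Zeb2 like Pcdhb16 (0.90), Hip1 and Plxna1. Cdh2, at 0.84 with Slc20a2, had the weakest first partner of the 10.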

How the data were processed

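Raw counts per gene in 105 mouse poly(A) libraries (stranded mRNA kit, per the labels' protocols) were used as deposited. The authors made the count values with Trim Galore, FastQC, STAR and HTSeq on mm10, per the submitters' processing notes; versions and the strand setting were not stated. Of 53379 gene IDs, 53274 matched a symbol, and the 154 pairs of libraries within groups held 0 identical pairs. CPM was computed from all gene counts, with no pseudocount except 0.5 for log2 profiles.

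Tests used edgeR 4.0.16 (quasi-likelihood, TMM, its default low-count filter, terms for group and run, R 4.3.3) with Benjamini-Hochberg adjustment over all tested genes, in 3 fits: 45 line libraries (16809 genes), 20 WT and melanocyte libraries (16929) and 48 tissue libraries (26242). Called means an adjusted p under 0.05. The tests were tried on simulated data with known folds, of which the WT comparisons recovered fewer than the KO and tissue comparisons, and MC38 WT against MCA101OVA WT the fewest. DESeq2 1.42.0, other scalings and filters, a library-set block, and leaving out each library were the alternatives.

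Libraries of 1 sequencing set were treated as paired only in the alternative with the library set as block. The main fits used the run term, which joins sets of the same run. Deviations from group means correlated above 0.1 in 9 of 9 same-set pairs in B16 (lowest 0.276), 9 of 9 in MCA101OVA (lowest 0.190) and 29 of 36 in B16OVA (lowest -0.67), and all MC38 libraries form 1 set.

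The text names all 10 genes, of each gene list up to 3 called genes per comparison by size of fold with a mean of 1 CPM or more, and 3 most alike genes per member over 17 group means (for Cdh2 the first alone is reported here). Vim, Esrp1, Col1a1, Col1a2 and the neighbours of Grhl2 were named after their values were seen where that rule does not reach them. The members and gene lists were chosen with earlier results of these data known.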

Additional observations from a re-analysis of the deposited data

Results flagged for a closer look

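Within groups of 4 to 6 libraries, a library was flagged when its gap to the nearest other exceeded the 95% critical value of Dixon's test, which chance does in about 1 of 20 groups. Of 154 pairs of gene and group tested, 17 were flagged, so part of the flags would arise by chance at that rate.

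Ovary replicate 4 was the lowest for 3 epithelial genes: 9.48 CPM of Cdh1 (others 99.2 to 107), 9.77 CPM of Epcam (62.5 to 64.1) and 0.370 CPM of Grhl2 (14.6 to 15.6). It was the one ovary library of its sequencing run, and the summed epithelial regulators were 304.8 CPM there against 952 to 1082 in the other 3. The part of the run or of the tissue piece was not tested.

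Kidney replicate 2 was the highest for Zeb1 (29.4 CPM, others 15.8 to 17.9), Zeb2 (55.5, others 31.1 to 35.0) and Cdh2 (15.8, others 5.49 to 6.47). Melanocyte replicate 1 held 325.8 CPM of Snai1 (others 2.35 to 11.6). Melanocyte replicate 5 held 5.33 CPM of Epcam (others 0 to 0.0503) and 1.16 CPM of Grhl2 (others 0 to 0.103).

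Colon replicate 3 held 1217 CPM of Cdh1 (others 883 to 932), and colon replicate 2 held 4.80 CPM of Twist1 (others 3.52 to 3.71). Spleen replicate 4 held 3.66 CPM of Cdh1 (others 2.51 to 2.61). Brain replicate 2 held 1.41 CPM of Snai1 (others 0.535 to 0.657), and brain replicate 4 held 81.4 CPM of Zeb1, the lowest (others 90.3 to 91.5). LN replicate 3 held 3.91 CPM of Twist2 (others 1.79 to 2.06).

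Twist2 stood out at trace level in B16OVA WT replicate 6 (0.255 CPM, others 0) and B16OVA Ctrl replicate 2 (0.290 CPM, others 0 to 0.0372). The Grhl2 difference between KO and Ctrl was -3.25 on the log2 scale in MCA101OVA relative to B16OVA, by the interaction term of the fit.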

How the results depend on the processing

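Of 3586 single-gene values under alternatives, 3518 stayed on their side of the threshold, 55 lost a call, 13 gained one and 0 called values changed sign. A further 291 changed sign while uncalled in both fits. Of 414 counts of called genes among the 10, 22 moved by over 1.5 times, 14 of them with 1 library left out.

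With the fit restricted to the groups compared, the B16 KO count fell to 0. In MC38 KO it was 1 with DESeq2, 1 with the library set as replicate block, and 0 to 1 with 1 library left out (1 without MC38 KO replicate 3). The KO difference of MCA101OVA from B16OVA gave 0 without the run term, 0 with the groups compared alone, 0 without 10 libraries of steep length slope, and 0 to 1 with 1 library left out. That of MC38 gave 1 with DESeq2 and 1 with the library set as replicate block (Grhl2, adjusted p = 0.0472). The block changed no other count of the 10 genes by over 1.5 times. The kidney count ran from 5 to 9 with 1 library left out, 5 of them without replicate 1. The causes were not tested.

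The slope limits of -0.2 (7 libraries) and -0.15 (10 libraries) were chosen after seeing the data. MC38 WT against MCA101OVA WT could not be fitted on those groups alone, since they share no run. Levels of Twist1, Twist2, Snai1, Cdh1 and Epcam near 0 in some lines rest on a few counts, and depth limits any order among them.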

Other observations

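The 7 single libraries of unedited lines, from a run of their own and with no replicate, gave values for 3 more lines: MC38OVA, MC38GFP and MCA101. Epcam had 0 counts in all 7. Cdh1 held 0.0748 CPM in MC38OVA, 0.0380 in MC38GFP, 0.0908 in MC38, 0.0531 in MCA101OVA and 0.0172 in MCA101, below the 0.608 CPM of B16OVA and 0.287 CPM of B16. Twist1 held 41.6, 34.5 and 36.8 CPM in MC38OVA, MC38GFP and MC38, and 17.6 and 29.0 CPM in MCA101OVA and MCA101. It had 0.0276 CPM in B16OVA and 0 in B16. Zeb1 held 61.9 to 99.7 CPM in the 5 MC38 and MCA101 libraries, 0.0553 CPM in B16OVA and 0.705 CPM in B16.

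Grhl2 held 2.39 CPM in MCA101OVA of that run and 0.241 CPM in MCA101, with 1.12 CPM in MC38GFP, 0.794 in MC38 and 0.449 in MC38OVA. It held 0.138 CPM in B16OVA and had 0 counts in B16. Zeb2 held 338.2 CPM in B16OVA and 193 CPM in B16, and between 75.7 and 156 CPM in the other 5 libraries. With 1 library a line, these differences have no replicate check.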
